A study of Mus musculus with 12 samples.

Results

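The genes described here are 10 feedback inhibitors of MAP kinase signalling, read by name from a table of 54532 genes: the dual-specificity phosphatases Dusp1, Dusp4, Dusp5, Dusp6, Dusp10 and Dusp16, the Sprouty genes Spry1, Spry2 and Spry4, and Spred1. MAP kinases (ERK, JNK and p38) are switched on by phosphorylation at a threonine and a tyrosine, and dual-specificity phosphatases switch them off by removing both phosphates. Sprouty and Spred proteins act upstream, between growth factor receptors and RAF. Many of these genes are themselves transcribed in response to the kinases they restrain, so their mRNA is commonly read as a trace of recent MAP kinase or FGF signalling, and in growth plate cartilage FGF receptor signalling through ERK restrains chondrocyte growth and maturation.

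The measurements came from ATDC5 cells, a mouse line of wild-type cartilage progenitor cells in which chondrocyte differentiation is often modelled. All cultures were kept in high-sugar DMEM with serum at 37 °C, and then stayed at 37 °C or were moved to 40 °C or 44 °C for 10 min. RNA was sequenced from 4 biological replicates of each temperature, 12 libraries in all. All groups are the same line, none is a primary cartilage culture, and the time from heating to RNA extraction is not given in the sources used here, so the interval over which these mRNAs could change is unknown.

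Library totals were 16269026 to 19506705 counts, and 3 counts, the limit used for a gene listed at 0, correspond to 0.154 to 0.184 CPM (counts scaled to a common library size). The heat shock genes separated the 44 °C libraries from the others, while for Hspb1 the 40 °C and 37 °C ranges overlapped: Hspb1 was at 59.7 to 79.5 CPM in the 37 °C libraries, 59.3 to 74.9 at 40 °C and 200 to 257 at 44 °C, and Hspa1b was at 8.40 to 9.11, 9.60 to 11.3 and 17.5 to 20.8 CPM. Of the cartilage lineage markers, Sox9 (33.3 to 70.2 CPM) and Runx2 (58.0 to 67.3 CPM) were present, while the matrix genes Col2a1 (0.415 to 1.87 CPM), Acan (0.795 to 2.63 CPM) and Comp (0 to 0.241 CPM) were low, and 3 of the 15 markers were at 0 in all libraries. Of the 9 blood cell markers, 6 averaged under 1 CPM, among them Ptprc, Csf1r and Adgre1 (0 to 0.118 CPM). Most of the sum of the 9, given below, came from the others. Summed CPM of the 8 smooth muscle and perivascular markers was 204 to 233 at 37 °C, 213 to 262 at 40 °C and 135 to 163 at 44 °C, that of the 9 fibroblast markers was 4020 to 4490, 3688 to 4540 and 3169 to 3696, and that of the 7 endothelial markers was 4.31 to 4.77, 4.67 to 5.34 and 5.60 to 7.77. These lists moved with temperature, and their part in the results below was not tested. The sums were 41.4 to 59.3, 34.0 to 47.0 and 29.8 to 43.3 CPM for the 9 blood cell markers, and 110 to 147, 98.4 to 138 and 119 to 150 CPM for the 6 epithelial markers. For the 15 cartilage lineage markers they were 146 to 191, 120 to 169 and 125 to 175 CPM, overlapping between temperatures. The median log2 fold change at 44 °C against 37 °C was -0.32 over the 10 cartilage markers tested. In bulk RNA, fewer cells of a type and less RNA per cell cannot be told apart.

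The libraries also differed within groups along a shared direction. The first principal component of the deviations from the group means, computed without the 10 genes and called the within-group axis here, held 29.7% of that variance. The libraries farthest out on it were 44 °C replicate 1 (at -1.65) and 40 °C replicate 2 (at 1.62), followed by 44 °C replicate 2 (1.22) and 37 °C replicate 1 (-1.17). When all libraries were projected onto the axis, the 37 °C group averaged -0.42 ± 0.78 (SD), the 40 °C group 0.01 ± 1.02 and the 44 °C group 0.41 ± 1.24, with overlapping spreads. Several of the genes below moved with this axis, so calls that single libraries changed are given with and without them. Fits that hold the axis use the same libraries and call more genes in general, so calls gained there are not an independent test.

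All 10 genes passed the filter on low counts, as did 14424 genes in all. Genes were compared with edgeR's quasi-likelihood F-test on the counts of all 12 libraries, with Benjamini-Hochberg adjustment over the 14424 genes, and a gene is called where its adjusted p is under 0.05. Values are given as CPM on TMM-scaled library sizes unless stated otherwise. Every adjusted p below is from this test unless another is named.

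Between 44 °C and 37 °C, 3 of the 10 genes were called, against 13.7% of all genes tested. Dusp5, which codes for a nuclear phosphatase specific to ERK, rose 1.69-fold, and Spry4, an inhibitor of receptor signalling to RAS and RAF, rose 1.27-fold. Dusp4, a nuclear phosphatase and the most abundant of the 10, fell by 18.6%. Among all genes 6.58% were called higher and 7.11% lower. Between 44 °C and 40 °C the called genes were Dusp5, Dusp6 and Dusp16, all higher at 44 °C, against 1.88% of all genes called higher, 3.14% called lower and 5.02% called either way. None of the 10 was called between 40 °C and 37 °C, where edgeR called 0% of all genes. At an unadjusted p under 0.05 in that comparison, Dusp1 and Spry2 passed, 2 of 10 against 5.21% of all genes (752), and DESeq2 called none of the 10. A joint test of the 3 temperatures called Dusp5, Spry4, Dusp16 and Dusp6 (adjusted p = 0.000337, 0.0197, 0.0467 and 0.0478), against 8.21% of all genes. The comparisons share libraries: 44 °C enters both of the larger ones, and 37 °C serves as the control in 2 of the 3, so their calls are not independent of each other.

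**Figure D1:**
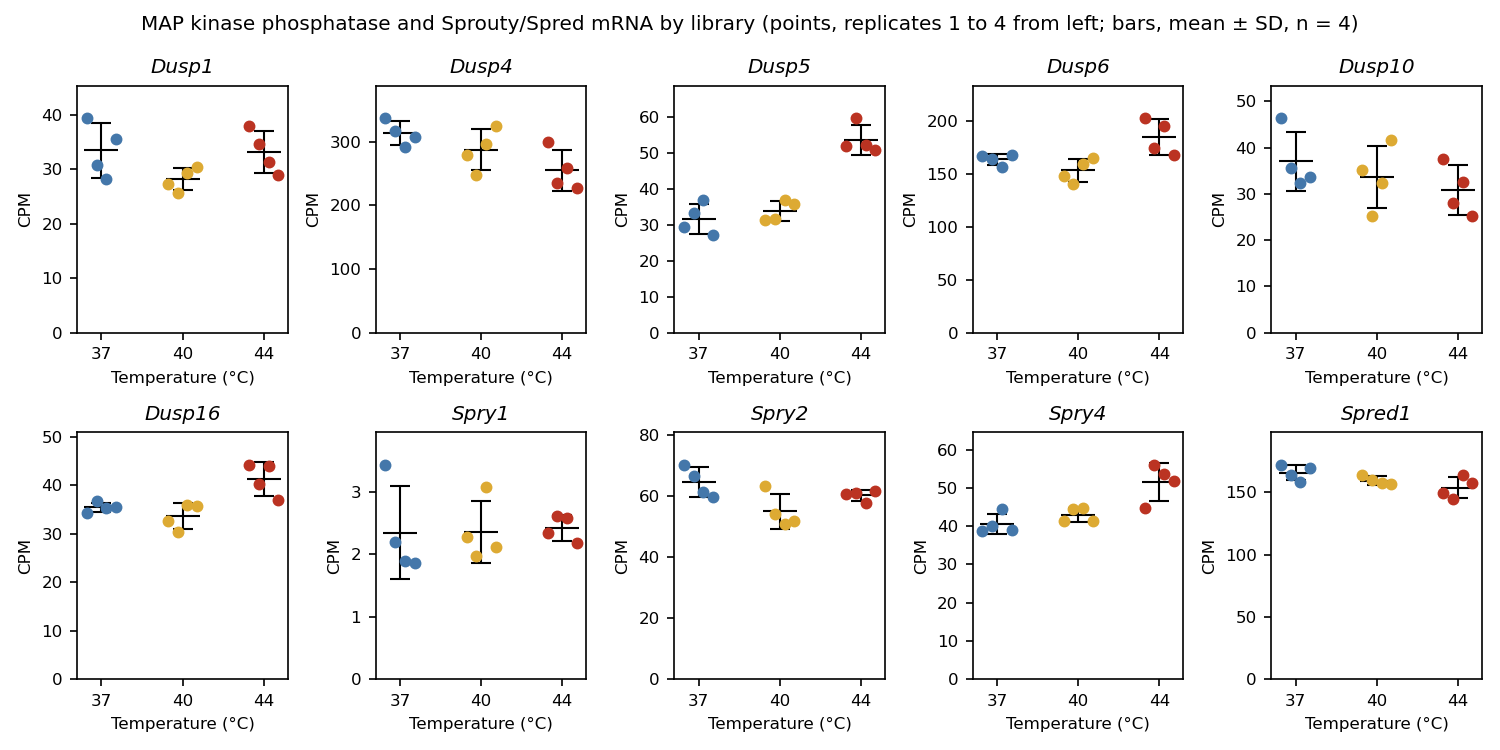
CPM of each gene (vertical axis, from 0) in each library by temperature in °C (horizontal axis), with points for replicates 1 to 4 from left to right and bars for the mean ± SD of 4 libraries. The 4 Dusp5 points at 44 °C sit between 50.8 and 59.6 CPM, above all 8 points at 37 °C and 40 °C, while the Dusp1, Spry1 and Spred1 points of the 3 temperatures overlap.

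The called genes did not all share a direction at 44 °C against 37 °C, where Dusp5 and Spry4 rose and Dusp4 fell, the last a call that 8 of the 12 single-library omissions removed. All 3 genes called at 44 °C against 40 °C rose, but 9 of the 12 omissions removed the call of Dusp16 and 7 that of Dusp6. Dusp5 kept its call in all 12. The median log2 fold change of the 10 genes was 0.01 at 44 °C against 37 °C, beside -0.00034 for all genes tested, and the summed CPM of the 10 genes had means ± SD (n = 4) of 888 ± 37.8 for 37 °C, 829 ± 51.4 for 40 °C and 866 ± 54.3 for 44 °C. The ranges of the 3 sums overlapped, running from 847 to 938, 762 to 885 and 809 to 929 CPM. At 44 °C against 40 °C the median of the 10 was 0.18, beside 0.01 for all genes, and at 40 °C against 37 °C it was -0.08, beside -0.00096.

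**Figure D2:**
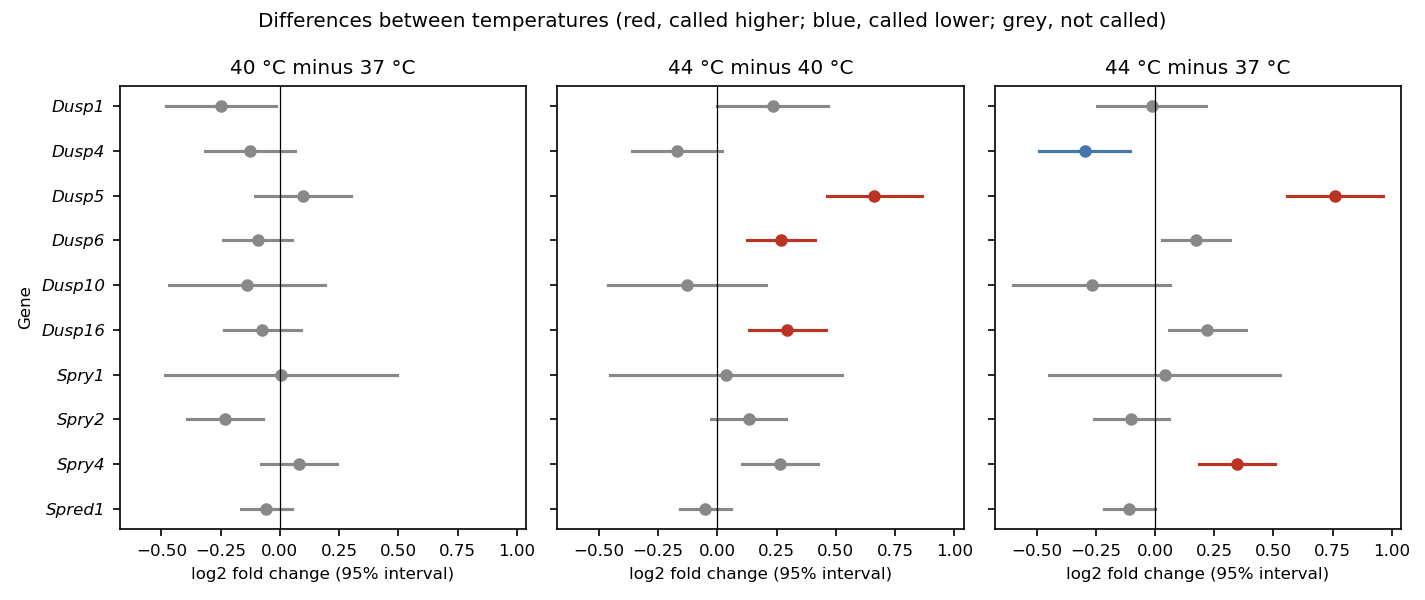
Log2 fold change (horizontal axis) of each gene (vertical axis) in the 3 comparisons, with its 95% interval, red where called higher, blue where called lower and grey where not called. Dusp5 lies at 0.76 (44 °C minus 37 °C) and 0.66 (44 °C minus 40 °C), and no gene is coloured at 40 °C minus 37 °C.

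Dusp5 carried the largest change of the 10 in both comparisons with 44 °C. The gene (ENSMUSG00000034765) lies on the plus strand at chr19:53529109-53542431 of mm10. Promoter windows of RefSeq (GRCm38.p6, 250 bases before to 50 after a start, 32851 windows) were read for 8 of the 10 genes. No window was searched for Dusp4 or Spry4, so the motif matches below say nothing about their promoters. The windows were searched on both strands for the CArG box, which serum response factor is known to bind, and for TGACGTCA (the cAMP response element), TGACTCA (AP-1), CCGGAAG (a core of ETS factor sites), GAANNTTC and TTCNNGAA (inverted unit pairs of the heat shock element). None of these contains another, but the last pair can overlap. The Dusp5 window was the only one of the 8 with a CArG box, and it held 2 of them side by side. The part of it upstream of the deposited gene start, chr19:53528895-53529108, plus strand, is shown because it carries this pair, in capitals.

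Dusp5: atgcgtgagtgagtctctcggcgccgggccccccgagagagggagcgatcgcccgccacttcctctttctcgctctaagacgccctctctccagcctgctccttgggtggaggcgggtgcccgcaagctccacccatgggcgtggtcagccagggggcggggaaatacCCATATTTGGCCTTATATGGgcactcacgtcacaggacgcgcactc

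The boxes CCATATTTGG and CCTTATATGG lie 82 to 73 and 72 to 63 bases before the RefSeq start, which lies inside the deposited gene. Across all windows, 1.63% held at least 1 CArG box (535 windows) and 0.0183% held 2 or more (6 windows). Neither AP-1 nor ETS letters were found in any of the 8 windows, and these matches describe letters in a window, not bound sites.

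Dusp5 mRNA was at 29.5, 33.1, 36.8 and 27.1 CPM in replicates 1 to 4 at 37 °C. At 40 °C it was at 31.2, 31.5, 36.8 and 35.7 CPM, and at 44 °C at 51.8, 59.6, 52.0 and 50.8 CPM. Every 44 °C library was above every library of the other groups, and the 37 °C and 40 °C libraries overlapped. Group means with their SD (n = 4) were 31.6 ± 4.23, 33.8 ± 2.83 and 53.5 ± 4.06 CPM. The log2 fold change at 44 °C was 0.76 ± 0.094 (SE) against 37 °C (adjusted p = 0.000277; fold 1.69, 95% interval 1.47 to 1.95) and 0.66 ± 0.094 against 40 °C (adjusted p = 0.00113; fold 1.58, interval 1.38 to 1.82). Both calls held in all 23 alternative analyses, in which the log2 fold change ran from 0.69 to 0.84 and from 0.61 to 0.71. At 40 °C against 37 °C the log2 fold change was 0.10 ± 0.095 (adjusted p = 0.843), with an interval from -0.11 to 0.30.

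Dusp4 codes for another nuclear phosphatase, one that acts on ERK and also on JNK. Its mRNA was at 337, 317, 292 and 307 CPM in the 37 °C replicates, 279, 248, 297 and 324 CPM at 40 °C, and 299, 234, 259 and 227 CPM at 44 °C. At 44 °C, 3 libraries were below all 37 °C libraries and replicate 1 was not. The log2 fold change against 37 °C was -0.30 ± 0.090 (SE, adjusted p = 0.0415). This call was not stable: it was lost when any 1 of 8 libraries was left out (37 °C replicates 1, 2 and 4, 40 °C replicates 1 and 3, and 44 °C replicates 2, 3 and 4), with adjusted p from 0.0540 to 0.124 and log2 fold changes from -0.31 to -0.25, and it was lost with library totals in place of TMM (adjusted p = 0.0599). Against 40 °C the log2 fold change was -0.17 ± 0.090 (adjusted p = 0.305, not called), and it moved with single libraries, to -0.26 without 44 °C replicate 1 (adjusted p = 0.0615) and to -0.11 without 40 °C replicate 4. Dusp4 was called lower there without both libraries farthest out on the within-group axis (-0.32, adjusted p = 0.00734) and in the fits that held the axis (-0.17, adjusted p = 0.00122) or its projection (-0.12, adjusted p = 0.0287). Those settings called 17.8%, 22.3% and 17.6% of all genes against 40 °C, beside 5.02% in the main fit. In the fit with the projection, the Dusp4 value against 37 °C was -0.19.

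Dusp1, the immediate-early nuclear phosphatase best known for inactivating p38 and JNK after stress, was at 28.1 to 39.4 CPM at 37 °C, 25.7 to 30.5 CPM at 40 °C and 28.9 to 37.96 CPM at 44 °C, with the 3 groups overlapping. The log2 fold change at 44 °C against 37 °C was -0.01 ± 0.109 (SE, adjusted p = 0.946), with an interval of the fold from 0.843 to 1.16. At 40 °C against 37 °C it was -0.25 ± 0.109 (unadjusted p = 0.0389, adjusted p = 0.823), and -0.16 without 37 °C replicate 1. Its RefSeq window was the only one of the 8 with a cAMP response element, a motif found in 1.79% of all windows; the bases upstream of the deposited start, chr17:26508520-26508722 on the minus strand, are shown with that element in capitals, for comparison with Dusp5.

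Dusp1: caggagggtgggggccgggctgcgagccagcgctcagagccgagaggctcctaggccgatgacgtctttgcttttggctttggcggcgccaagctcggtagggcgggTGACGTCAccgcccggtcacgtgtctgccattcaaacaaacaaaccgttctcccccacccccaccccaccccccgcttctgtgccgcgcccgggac

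Dusp6 codes for the cytoplasmic phosphatase specific to ERK and is a standard readout of FGF signalling. Its mRNA was at 167, 164, 157 and 168 CPM at 37 °C, 148, 141, 160 and 165 CPM at 40 °C, and 203, 174, 195 and 168 CPM at 44 °C. The 44 °C libraries were all above the 40 °C libraries, but replicate 4 fell within the 37 °C range. The log2 fold change was 0.27 ± 0.067 (SE) against 40 °C (adjusted p = 0.0316) and 0.17 ± 0.067 against 37 °C (adjusted p = 0.0946, not called). The call against 40 °C was lost when any 1 of 7 libraries was left out (37 °C replicates 2 and 4, 40 °C replicates 1, 2 and 3, and 44 °C replicates 1 and 3; adjusted p = 0.0514 to 0.105, log2 fold change 0.22 to 0.29). In a fit that also held the within-group axis, Dusp6 was called against 37 °C as well (adjusted p = 0.00103). Its log2 fold change there was again 0.17, and that fit called 34.9% of all genes, against 13.7% in the main fit. The window of Dusp6, the gene whose kinase preference is closest to that of Dusp5, held none of the motifs, and its upstream part, chr10:99262981-99263230 on the plus strand, is shown for contrast.

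Dusp6: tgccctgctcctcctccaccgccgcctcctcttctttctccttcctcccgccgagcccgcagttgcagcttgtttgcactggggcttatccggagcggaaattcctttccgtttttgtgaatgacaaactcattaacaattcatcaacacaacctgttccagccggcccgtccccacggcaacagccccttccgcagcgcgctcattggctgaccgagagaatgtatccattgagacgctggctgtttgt

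Dusp16 and Dusp10 code for phosphatases that act mainly on JNK and p38. Dusp16 mRNA was at 34.3, 36.7, 35.3 and 35.5 CPM at 37 °C, 32.7, 30.4, 35.9 and 35.8 CPM at 40 °C, and 44.3, 40.3, 44.0 and 36.9 CPM at 44 °C. All 44 °C libraries exceeded all others, replicate 4 by a small margin (36.87 CPM, beside 36.72 in 37 °C replicate 2). The log2 fold change was 0.30 ± 0.076 (SE) against 40 °C (adjusted p = 0.0357) and 0.22 ± 0.075 against 37 °C (adjusted p = 0.0650, not called). Against 40 °C the call was lost without any 1 of 9 libraries (37 °C replicates 2 and 4, each of the 40 °C replicates, and 44 °C replicates 1, 2 and 3; adjusted p = 0.0510 to 0.108). Against 37 °C a call was gained without 40 °C replicate 2 (adjusted p = 0.0475) or 44 °C replicate 4 (adjusted p = 0.0428), and with DESeq2 (adjusted p = 0.0427). The Dusp16 window was the only one of the 8 with GAANNTTC, which 7.86% of all windows hold; TTCNNGAA, in 8.52% of windows, was found for Spred1 and Spry2. The Dusp16 bases upstream of the RefSeq start, chr6:134792629-134792878 on the minus strand, are shown with the GAANNTTC match in capitals. The Spred1 and Spry2 matches are not shown, and whether any of these matches bears on the mRNA changes was not tested.

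Dusp16: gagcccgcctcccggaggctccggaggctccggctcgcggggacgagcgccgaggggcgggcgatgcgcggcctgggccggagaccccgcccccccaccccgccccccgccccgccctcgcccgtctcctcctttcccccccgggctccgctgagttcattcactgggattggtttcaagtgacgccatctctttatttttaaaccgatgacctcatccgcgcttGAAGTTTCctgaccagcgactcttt

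Dusp10 mRNA varied most among the phosphatases within groups. It was at 32.3 to 46.4 CPM at 37 °C, 25.3 to 41.7 CPM at 40 °C and 25.1 to 37.5 CPM at 44 °C, with coefficients of variation of 17.2%, 20.2% and 17.7%. Its log2 fold change at 44 °C against 37 °C was -0.27 ± 0.155 (SE, adjusted p = 0.259), with an interval from -0.60 to 0.06. This value rested on few libraries: it was -0.14 without 37 °C replicate 1 and -0.07 in the fit with the projected axis. It was called in the fit with the within-group axis (-0.27, adjusted p = 0.00260) and without both libraries farthest out (-0.38, adjusted p = 0.0419). Those settings called 34.9% and 27.5% of all genes, beside 13.7% in the main fit. The groups overlapped for Dusp10 in all 3 comparisons. Dusp10 and Dusp16 overlap genes on the opposite strand (1700056E22Rik and Gm36328), which held 182 and 9 counts over all libraries against 7058 and 7642 for Dusp10 and Dusp16; whether counting used the strand is not given in the sources used here.

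Spry4 was the second gene called higher at 44 °C against 37 °C. Sprouty proteins are recruited after growth factor receptors are engaged and curb the signal to RAS and RAF. Its mRNA was at 38.8, 39.9, 44.4 and 39.0 CPM at 37 °C, 41.3, 44.3, 44.7 and 41.2 CPM at 40 °C, and 44.7, 56.1, 53.6 and 51.7 CPM at 44 °C. The 44 °C libraries were all above the 37 °C libraries, with replicate 1 at the edge of the 37 °C range and inside that of 40 °C. The log2 fold change was 0.35 ± 0.075 (SE) against 37 °C (adjusted p = 0.00878; fold 1.27, interval 1.14 to 1.42), and this call held in all 23 alternatives (log2 fold change 0.28 to 0.41). Against 40 °C it was 0.26 ± 0.075 (adjusted p = 0.0565, not called), but it was called in 7 of the 23 alternatives: without 44 °C replicate 1 (0.32, adjusted p = 0.0101), without both libraries farthest out (0.34, adjusted p = 0.00624), with DESeq2 (adjusted p = 0.0266), with library totals (adjusted p = 0.0302), with a replicate block (adjusted p = 0.0302) and in both fits with an axis (adjusted p = 0.00167 and 0.00685). Of all genes, the fits with an axis called 22.3% and 17.6%, and leaving out both libraries farthest out called 17.8%, beside 5.02% in the main fit. The small RNA genes Gm27804 and Gm27369, on the opposite strand within Spry4, held 11 and 5 counts over all libraries against 9316 for Spry4.

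Spry2, another inhibitor of receptor signalling to RAS and RAF, was not called in any comparison. Its mRNA was at 70.2, 66.6, 61.2 and 59.6 CPM at 37 °C, 63.1, 54.0, 50.9 and 51.6 CPM at 40 °C, and 60.4, 61.0, 57.6 and 61.5 CPM at 44 °C. Of the 40 °C libraries, 3 lay below all 37 °C libraries, and the log2 fold change there was -0.23 ± 0.075 (SE, unadjusted p = 0.00738, adjusted p = 0.823). At 44 °C against 37 °C it was -0.10 ± 0.074 (adjusted p = 0.387), an interval of the fold from 0.836 to 1.04 that excludes the 1.27-fold value of Spry4; the difference between Spry4 and Spry2 was not itself tested. Spry1 was low, at 1.85 to 3.43 CPM over all libraries (31 to 68 counts each), and its fold at 44 °C against 37 °C could lie anywhere from 0.734 to 1.44.

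Spred1, which brings neurofibromin to the membrane to inactivate RAS, was steady across libraries. Its mRNA was at 158 to 172 CPM at 37 °C, 156 to 164 CPM at 40 °C and 145 to 164 CPM at 44 °C. The log2 fold change at 44 °C against 37 °C was -0.11 ± 0.050 (SE, unadjusted p = 0.0469, adjusted p = 0.156), an interval of the fold from 0.860 to 0.999. Counted without regard to a threshold on p, the groups did not overlap for 3 of the 10 genes at 44 °C against 37 °C (Dusp5, Dusp16 and Spry4), against 17.8% of all genes, and for 3 at 44 °C against 40 °C (Dusp5, Dusp6 and Dusp16), against 10.7%. At 40 °C against 37 °C no gene of the 10 separated, against 3.83% of all genes.

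Levels of the 10 genes were compared with each other as CPM per kb of the deposited gene length. Dusp4 was highest with a mean of 104 over the 12 libraries, followed by Dusp6 at 53.4, Spry2 at 28.7, Spred1 at 23.5, Dusp5 at 16.03, Dusp1 at 11.7, Dusp10 at 11.1, Spry4 at 9.81, Dusp16 at 4.72 and Spry1 at 0.816 CPM per kb. Dusp4 stood above the range of Dusp6, and Dusp6 above that of Spry2. From Spry2 down to Spry4 each gene's range overlapped that of the next, and Dusp16 and Spry1 each lay below the gene before. By group, Dusp5 was at 12.8 ± 1.71 CPM per kb at 37 °C (SD, n = 4), where its range overlapped that of Dusp1 (12.4 ± 1.86). At 44 °C Dusp5 was at 21.6 ± 1.64, above the range of Dusp1 (12.3 ± 1.46) and overlapping that of Spred1 (22.7 ± 1.26). In the order of all genes tested by level per length, Dusp4 stood at the 97.0th percentile, Dusp5 at the 74.2nd and Spry1 at the 17.8th.

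**Figure D3:**
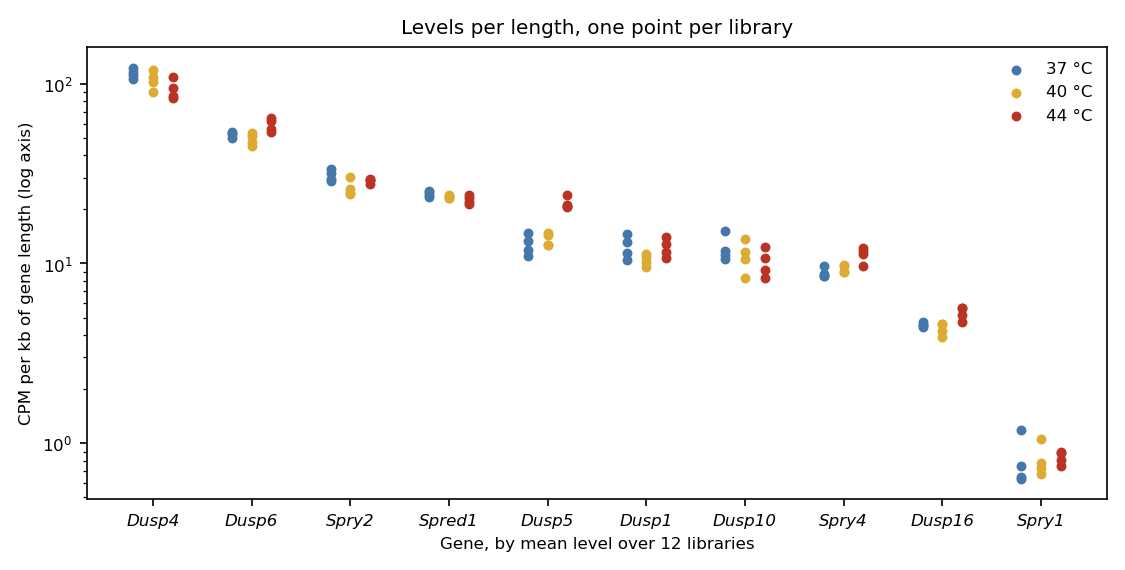
CPM per kb of gene length (vertical log axis) of the 10 genes, ordered by their mean over 12 libraries, with 1 point per library coloured by temperature. Dusp4 lies highest (mean 104) and Spry1 lowest (mean 0.816), and the red 44 °C points of Dusp5 stand apart from its other points.

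The phosphatase genes other than Dusp5 were often high or low in the same libraries. The 44 °C replicate 1 library had the highest 44 °C value for Dusp1, Dusp4, Dusp6, Dusp10 and Dusp16, and 44 °C replicate 4 had the lowest for 7 of the 10 genes. The 40 °C replicate 2 library was lowest in its group for Dusp1, Dusp4, Dusp6, Dusp10, Dusp16 and Spry1, and 40 °C replicate 4 was highest for Dusp1, Dusp4, Dusp6 and Dusp10. At 37 °C replicate 3 was lowest for Dusp1, Dusp4, Dusp6 and Dusp10. Replicate 1 of that group was highest for Dusp1, Dusp4 and Dusp10 but lowest for Dusp16. These are also libraries toward the ends of the within-group axis. Toward its negative end lie 44 °C replicate 1, 37 °C replicate 1 and 40 °C replicate 4 (-1.65, -1.17 and -1.08). Toward its positive end lie 40 °C replicate 2, 44 °C replicate 2, 44 °C replicate 4 and 37 °C replicate 3 (1.62, 1.22, 1.08 and 0.92). Of these, 44 °C replicate 2 was lowest in its group only for Spred1, and highest for Dusp5, Spry1 and Spry4. In it Dusp1 deviated from its group mean by 0.07, Dusp4 by -0.11, Dusp6 by -0.08, Dusp10 by -0.12 and Dusp16 by -0.03 (log2 CPM). Dusp10 deviated from its group mean by 0.30 (log2 CPM) in 44 °C replicate 1 and by -0.39 in 40 °C replicate 2, and Dusp4 by 0.24 and -0.20 in the same libraries. The correlation of deviations over the 12 libraries, given as a description, was r = 0.931 for Dusp4 and Dusp6, 0.925 for Dusp4 and Dusp10, and 0.897 for Dusp6 and Dusp16, but 0.635 for Dusp10 and Dusp16 and 0.401 for Dusp1 and Dusp16. Dusp5 and Spry4 stood otherwise (r = 0.556 with each other). With Dusp4, Spry4 was at -0.684 and Dusp5 at 0.015, and Dusp5 with Spred1 was at -0.724. At 44 °C both Dusp5 and Spry4 were highest in replicate 2. Spry4 was lowest in replicate 1 there, and Dusp5 in replicate 4.

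**Figure D4:**
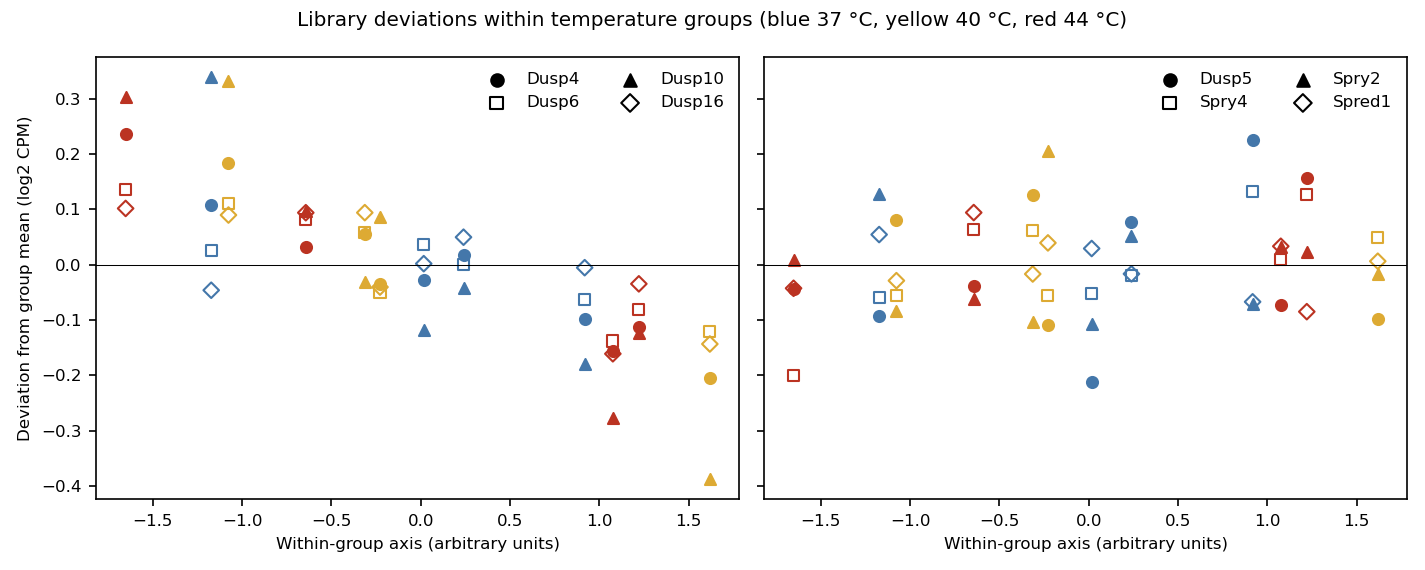
Deviation of each library from its group mean in log2 CPM (vertical axis) against the within-group axis in arbitrary units (horizontal axis), for Dusp4, Dusp6, Dusp10 and Dusp16 on the left and Dusp5, Spry4, Spry2 and Spred1 on the right, coloured by temperature. On the left, 44 °C replicate 1 (axis -1.65) is above 0 for each gene and 40 °C replicate 2 (axis 1.62) is below 0 for each gene.

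When the within-group axis entered the model, 7 of the 10 genes were called at 44 °C against 37 °C (4 higher and 3 lower) and 6 at 44 °C against 40 °C, but the number of all genes called also rose, from 1975 to 5034 (34.9% of those tested) and from 724 to 3217 (22.3%). The axis was drawn from the same libraries, so these counts describe the libraries and are not an independent test.

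The genes whose log2 CPM followed Dusp5, Spry4 and Dusp16 most closely over the 12 libraries were ranked by Pearson's r as a description, since the libraries share depth, composition and the temperature groups. For Dusp5 they were E2f7 (r = 0.972), Tsg101 (r = 0.962) and Nelfe (r = 0.961). For Spry4 they were Ice2 (0.973), Zfp948 (0.965) and Btg3 (0.965), and for Dusp16 they were Slc20a1 (0.917), Gpd2 (0.914) and Pygb (0.909). E2f7, a transcriptional repressor of the cell cycle, was at 53.3 CPM at 37 °C and 76.8 CPM at 44 °C on average.

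The rest of the pathway was read from 9 further lists of 154 symbols, of which 142 were tested. Of the other MAP kinase phosphatases, Dusp7, Dusp8 and Dusp9 were tested and none was called (median log2 fold change 0.12 at 44 °C against 37 °C; at 40 °C against 37 °C and 44 °C against 40 °C also none). At an unadjusted p under 0.05 only Dusp7 passed in these 3 comparisons, at 44 °C against 37 °C (-0.18, adjusted p = 0.0743), and without 44 °C replicate 1 the number called there was 1. Dusp2, at 1 to 10 counts a library, was not tested. Of 10 small dual-specificity phosphatases that lack the MAP kinase binding domain, 1 was called, or 10% against 13.7% of all genes. Dusp18 fell (-0.37, adjusted p = 0.04999), a call that was kept only without 40 °C replicate 2 or 44 °C replicate 1 when libraries were left out 1 at a time.

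Other negative regulators of receptor and RAS signalling moved in both directions at 44 °C against 37 °C, with 3 of 14 higher and 1 lower (28.6% called, against 13.7% of all genes; median -0.04). Errfi1, an inhibitor of the EGF receptor, rose by 0.25 (log2; 154 ± 5.26 to 182 ± 6.52 CPM, adjusted p = 0.00342) and also rose against 40 °C (0.26, adjusted p = 0.00436). Rasa2, a RAS GTPase-activating protein, rose by 0.22 and Lrig3 by 0.39, while Lrig1, which promotes removal of EGF receptors, fell by 0.26 (adjusted p = 0.0227, 0.0333 and 0.0153). Spred2 and Spred3 were not called (-0.06 each). The count of 4 became 2 without 37 °C replicate 1 or 3 and 1 without 44 °C replicate 4.

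Of 15 FGF ligands, receptors and adaptors, 3 were lower at 44 °C than at 37 °C and none higher (20% called, against 13.7% of all genes called and 7.11% called lower; median -0.06). Fgf7 fell from 36.9 ± 2.57 to 29.3 ± 2.90 CPM (adjusted p = 0.0289), and the adaptors Grb2 and Shc1, which link receptors to RAS, fell by 0.19 each on the log2 scale (adjusted p = 0.0435 and 0.0165). The receptor genes were not called: Fgfr1 was at 116 ± 3.03 CPM at 37 °C and 97.2 ± 12.4 CPM at 44 °C (-0.26, adjusted p = 0.0968), Fgfr3 was at 10.97 ± 0.871 and 8.24 ± 0.857 CPM (-0.41, adjusted p = 0.120), and Fgfr2 had 0 to 4 counts a library. The count of 3 was 1 without 37 °C replicate 1, 2 or 4 or 44 °C replicate 2 or 3, and 5 without 40 °C replicate 2 or 44 °C replicate 1. Grb2 lost its call in 9 of the 12 single-library omissions and Fgf7 in 5.

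Among 21 genes of other receptor tyrosine kinases and their ligands 3 were called, or 14.3% against 13.7% of all genes. Hbegf, an EGF receptor ligand, had mean levels of 22.6 ± 2.63, 26.6 ± 2.93 and 38.6 ± 2.57 CPM in the order of temperature (SD, n = 4). It rose by 0.77 ± 0.098 (log2, SE) between 37 °C and 44 °C (adjusted p = 0.000307). Its change was of the size of that of Dusp5. Hgf fell by 1.01 (adjusted p = 0.00559) and Pdgfrb, a receptor that also marks perivascular cells, by 0.78 (adjusted p = 0.00435). Of the 21 genes of the RAS-RAF-MEK-ERK cascade only Braf was called (0.22, adjusted p = 0.0310), a share of 4.76% against 13.7% of all genes. That count of 1 was 0 without 37 °C replicate 1, 2 or 4 or 44 °C replicate 3 or 4, 2 without 37 °C replicate 3 or 40 °C replicate 2, and 4 without 44 °C replicate 1. Of 24 JNK and p38 cascade genes, Map3k20, a kinase known to sense stalled ribosomes, rose by 0.29 (adjusted p = 0.00272) and Gadd45b, a stress-induced activator of p38 signalling, by 0.44 (adjusted p = 0.0447), while Map2k6, a p38 kinase kinase, fell by 0.88 (adjusted p = 0.0175). This count of 3, or 12.5% against 13.7% of all genes, was 1 without 44 °C replicate 2 or 4 and 6 without 44 °C replicate 1. Gadd45b lost its call in 8 of the 12 single-library omissions and Map2k6 in 3.

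Of 29 transcription targets of ERK and immediate-early genes, 4 were higher and 3 lower at 44 °C than at 37 °C, with a median of -0.000078. That is 24.1% called, against 13.7% of all genes, of which 6.58% were higher and 7.11% lower. Hbegf, which is also in this list, Srf (0.30, adjusted p = 0.0125), Epha2 (0.36, adjusted p = 0.00915) and Plaur (0.37, adjusted p = 0.0310) rose. Srf, the gene of the serum response factor, went from 88.2 ± 6.38 to 109 ± 8.14 CPM (SD, n = 4). Junb (-0.29, adjusted p = 0.00245), Ccnd1 (-0.23, adjusted p = 0.0381) and the FGF-responsive Etv5 (-0.19, adjusted p = 0.0355) fell. The classic immediate-early genes Egr1 (-0.36 ± 0.207, adjusted p = 0.259) and Fos (0.20 ± 0.166, adjusted p = 0.431) and the FGF-responsive Etv4 (-0.02 ± 0.054, adjusted p = 0.878) were not called, at 20.3, 2.97 and 93.1 CPM at 37 °C. The count of 7 was 4 without 37 °C replicate 2 or 4 or 44 °C replicate 2 or 4. Of 6 proteins that bind AU-rich elements and set the decay of short-lived mRNAs, 1 was called, or 16.7% against 13.7% of all genes. Zfp36l2 fell by 0.15 (adjusted p = 0.0448), a call kept only without 37 °C replicate 3, 40 °C replicate 2 or 44 °C replicate 1 when libraries were left out 1 at a time.

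**Figure D5:**
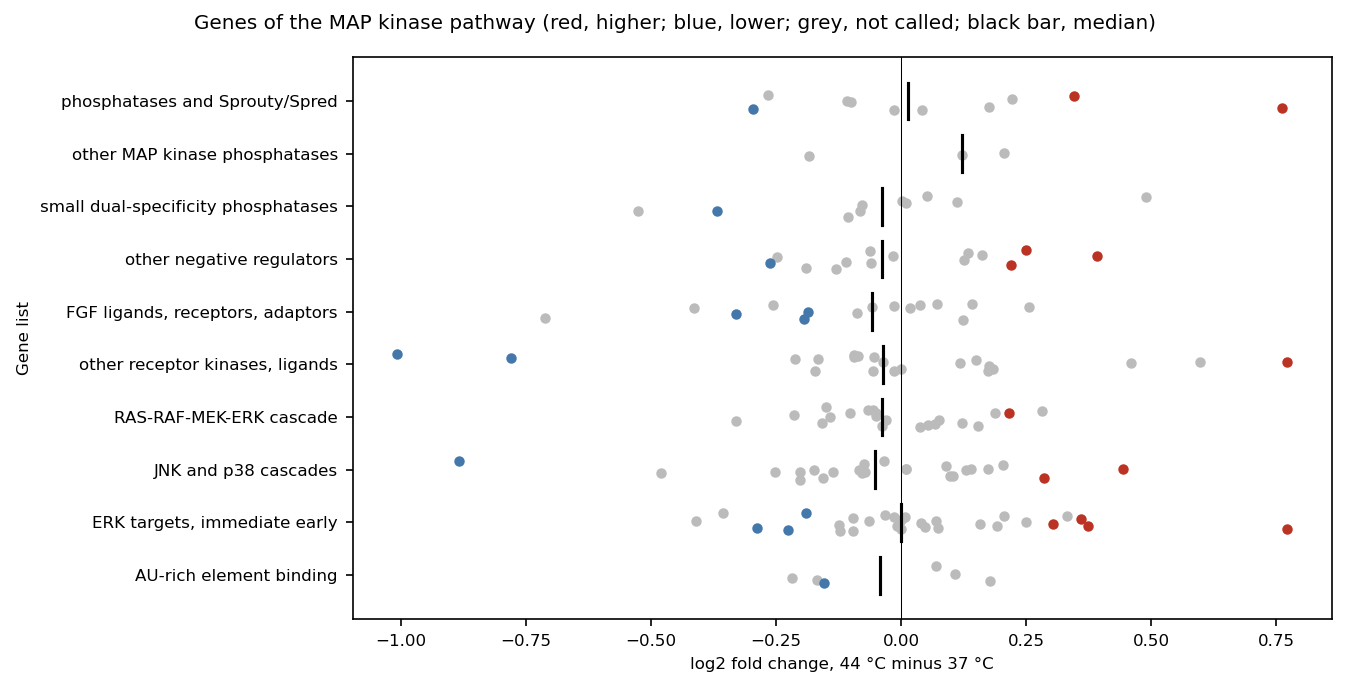
Log2 fold change at 44 °C minus 37 °C (horizontal axis) of every tested gene in each list (vertical axis), red where called higher, blue where called lower, grey where not called, with a black bar at the list's median. The medians lie between -0.06 and 0.12, and Dusp5 (0.76) and Hbegf (0.77, in 2 lists) are the points farthest to the right.

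In all, 22 of the 142 genes tested in these 9 lists were called at 44 °C against 37 °C, a share of 15.5% near the 13.7% of all genes, and 9 of them stayed called in every alternative (Junb, Srf, Epha2, Hbegf, Shc1, Errfi1, Hgf, Pdgfrb and Map3k20). Between 44 °C and 40 °C 7 were called, 4.93% against 5.02% of all genes, and Hbegf (0.53, adjusted p = 0.00528), Errfi1 and Pdgfrb (-0.77, adjusted p = 0.00784) stayed called throughout. The others were Lrig1 (-0.23, adjusted p = 0.0489), Grb2 (-0.23, adjusted p = 0.0338), Map3k20 (0.19, adjusted p = 0.0461) and Ccnd1 (-0.28, adjusted p = 0.0267). Of the 12 single-library omissions, 11 removed the call of Map3k20, 9 that of Lrig1, 6 that of Grb2 and 3 that of Ccnd1. At 40 °C against 37 °C edgeR called none of the 142 genes, DESeq2 called 0, and 4 had an unadjusted p under 0.05.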

How the data were processed

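Poly-A RNA of 12 ATDC5 cultures (3 temperatures, 4 replicates each) was sequenced. The authors deposited raw counts per gene; featureCounts 1.5.0-p3, HISAT2 2.0.5, StringTie 1.3.3b, fastp and build mm10 are named in the submitters' processing notes, without role or order, and the handling of strand and of reads with several matches is not given in the sources used here. Samples were grouped by the temperature in their labels. Genes passed edgeR's filterByExpr (minimum count 10, minimum total 15), were scaled by TMM and fitted by group on all 12 libraries (edgeR 4.0.16, R 4.3.3; two-sided F-tests). Marker and heat shock CPM use library totals. SE is the log2 fold change divided by the root of F; intervals are at 95%. DESeq2 1.42.0 was an alternative, as were other scalings, filters, covariates and leaving out each library; 2 alternatives (the axis projected onto all libraries, and leaving out the 2 libraries farthest out) were added after seeing the data. Whether the numbers 1 to 4 pair samples across groups is not given in the sources used here, and the main fit treated the samples as unpaired. The 12 same-numbered pairs had correlations of deviations from -0.21 to 0.37, 3 over 0.1, and pairs with different numbers ran from -0.39 to 0.31. The scripts were tested on simulated data. The 10 genes and the lists were chosen with earlier results of these data known. Named were all 10, up to 8 called genes per list and comparison by smallest p, 7 FGF and early response genes, 2 heat shock genes, and the 3 closest followers (mean of at least 5 CPM) of the 3 genes with the smallest joint p; marker genes and Dusp2, Dusp7, Dusp8, Dusp9, Spred2 and Spred3 were named beyond that rule. Deposited coordinates matched GENCODE M21 for 8 of the 10.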

Additional observations from a re-analysis of the deposited data

Results flagged for a closer look

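Dusp5 in 44 °C replicate 2 was at 59.6 CPM, apart from the other 3 libraries of its group, which lay between 50.8 and 52.0 CPM. The gap was 0.861 of the group's range, above Dixon's critical value for 4 samples. Of the 30 groups checked (10 genes at 3 temperatures) this was the only 1 so marked, and chance marks about 1 in 20. Without that library Dusp5 stayed called at 44 °C against both other temperatures.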

How the results depend on the processing

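Of the 10 genes, the number called with the within-group axis in the model was 2 at 40 °C against 37 °C (Dusp4 and Spry2, both lower), 7 at 44 °C against 37 °C, 6 at 44 °C against 40 °C and 8 in the joint test. The shares of all genes called in those fits were 4.13%, 34.9%, 22.3% and 33.5%. With the projected axis it was 5 at 44 °C against 37 °C, 6 at 44 °C against 40 °C and 7 in the joint test, where 21.8%, 17.6% and 20.9% of all genes were called. Fitting only the 2 groups compared left 1 called gene, Dusp5, at 44 °C against 40 °C, and 2.39% of all genes. In the joint test 2 genes were called with DESeq2's size factors in edgeR and 2 with a filter of 1 CPM in 4 libraries. Leaving out each library in turn gave 0 to 0 called genes at 40 °C against 37 °C, 2 to 4 at 44 °C against 37 °C, 1 to 3 at 44 °C against 40 °C and 1 to 3 in the joint test. At 44 °C against 40 °C the count was 1 without 37 °C replicate 2 or 4, 40 °C replicate 1, 2 or 3, or 44 °C replicate 3. In the joint test it was 1 without 37 °C replicate 1, 2 or 4 or 44 °C replicate 2 or 3, and 2 without 37 °C replicate 3 or 40 °C replicate 2 or 3. With the replicate number as a block, counts were 3 at 44 °C against 37 °C, 0 at 40 °C against 37 °C, 4 at 44 °C against 40 °C and 3 in the joint test. The shares of all genes called were then 17.7%, 0%, 6.25% and 11.5%. Whether the numbers pair the samples is not known, and 6 of 12 libraries correlated best with their own number. How many would do so by chance was not tested. The cause of these moves was not tested.

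Signs turned only for log2 fold changes near 0 that were not called. Dusp1 at 44 °C against 37 °C was at 0.0884 with the projected axis, and at -0.0898 to 0.0705 leaving out a library. Spry1 was at -0.0160 with library totals at 40 °C against 37 °C and at -0.0231 without the 2 libraries farthest out at 44 °C against 40 °C. Leaving out a library, Spry1 ran from -0.155 to 0.260 at 40 °C against 37 °C, from -0.0598 to 0.290 at 44 °C against 37 °C and from -0.0407 to 0.195 at 44 °C against 40 °C.

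The counts over all genes moved too. At 44 °C against 37 °C (1975 called) they were 979, 1156 and 1063 without 37 °C replicates 1, 2 and 4, 980 and 1062 without 44 °C replicates 2 and 4, and 3355 without 44 °C replicate 1. At 44 °C against 40 °C (724 called) they were 394, 421 and 420 without 40 °C replicates 1, 3 and 4, 426 and 456 without 44 °C replicates 2 and 4, and 1265 without 44 °C replicate 1. In the joint test (1184 called) they were 742, 698 and 678 without 37 °C replicates 1, 2 and 4, and 2125, 562, 725 and 609 without 44 °C replicates 1, 2, 3 and 4. Each of the 10 genes had 399 or more counts in every library except Spry1 (31 to 68), where depth limits the values most. The p-values measure the spread between these replicates only.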
